A study of Mus musculus with 8 samples.

Results

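The untreated cells of a study of reactive astrocytes are described here, by their level of expression before any stimulus. The members are the 4 libraries whose titles give no treatment, of 8 libraries in all. The other 4 libraries came from the same kind of cells given a cocktail of IL-1α, TNFα and C1q, and no value of theirs is reported. All cells were astrocytes from the brains of newborn (P0) C57BL/6 mice, labelled WT. The sources used here do not give the brain region, the sex, the number of animals, the time in culture or the way the astrocytes were purified, nor whether the 4 libraries came from separate cultures. The spread between libraries given below may therefore be technical. No contrast between groups was made and no difference was tested.

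Astrocytes are the star-shaped glial cells of the brain. They take up glutamate and potassium released by neurons, pass small molecules to each other through gap junctions, cover blood vessels with their end-feet and secrete lipoproteins, matrix and factors that help synapses form. They arise from radial glia, whose intermediate filament protein vimentin and whose fatty acid binding protein they share for a time. When tissue is injured or inflamed they become reactive and make complement, acute-phase proteins, chemokines and more of the filament protein GFAP.

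Levels are in FPKM, fragments scaled by the length of the gene and the depth of the library, which puts genes of different lengths on 1 scale. Each library held between 19195898 and 20640490 fragments, and 21878 genes were listed. A mean of at least 1 FPKM is called on here. By that rule 11739 genes were on, 53.7% of those listed, and 6080 genes (27.8%) reached 10 FPKM. A mean of at least 100 FPKM was reached by 514 genes (2.35%). A further 5110 genes had no fragment in any of the 4 libraries. For a gene of 2 kb, a count of 0 allows a level of up to 0.0727 to 0.0781 FPKM (3 fragments, counting error only). Across the 11739 genes that were on, log2(FPKM + 1) correlated between pairs of libraries with a Pearson r of 0.996 to 0.998, a description over genes, which are not independent replicates. Library 4 stood apart in genes that interferon induces, most of which were highest there and lowest in library 2. The spread of those genes is given with and without library 4.

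The RNA was spread over many genes. The 10 most abundant genes of a library, ranked by fragments, held 5.54% ± 0.0764 of its fragments (SD, n = 4 libraries, as for every ± below), and the 100 most abundant held 17.8% ± 0.0211. It took 206 genes to reach 25% of the fragments, 1099 to reach 50% and 6135 to reach 90%. Between 11717 and 11747 genes were at or above 1 FPKM in a single library.

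Fth1, the heavy chain of the iron-storage protein ferritin, was the most abundant transcript. Its FPKM was 4166, 4200.1, 4137 and 4167 in libraries 1 to 4, a mean of 4167 ± 25.9. The values lay within 1.02-fold of each other. Vim, the intermediate filament gene of immature and reactive astrocytes, followed at 3249.5, 3254, 3164 and 3253, a mean of 3230.1 ± 44.0. Library 3 was the lowest for Vim and the other 3 lay within a few FPKM of each other. Pea15a, a cytoplasmic phosphoprotein abundant in astrocytes, had 3175, 3156, 3136 and 3077 FPKM and a mean of 3136 ± 42.6, and the elongation factor gene Eef1a1 had a mean of 2565 ± 21.4.

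Secreted proteins filled much of the remaining top. Igfbp5, which binds insulin-like growth factors outside the cell, stood at 2212, 2277, 2236 and 2086 FPKM in the 4 libraries, and its relative Igfbp2 at 1837, 1824, 1934 and 2132. Igfbp2 was highest in library 4, where Igfbp5 was lowest. The collagen-binding glycoprotein gene Sparc had a mean of 1905 ± 9.30 FPKM and was among the steadiest abundant genes, with a coefficient of variation of 0.488%. Lcn2, the siderophore-binding lipocalin of inflamed tissue, had 1889, 1887, 1871 and 1761 FPKM. Apoe, the main lipoprotein component made by astrocytes, had 1774, 2020.5, 1763 and 1696 FPKM, highest in library 2. Then came the cysteine protease inhibitor gene Cst3 at 1434 ± 20.5, the brain creatine kinase gene Ckb at 1429.8 ± 46.0 and the glutathione transferase gene Gstm1 at 1267 ± 29.6.

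C3, the central component of complement, stood at 1177, 1181, 1097 and 1062 FPKM, with libraries 1 and 2 above libraries 3 and 4. Mt3, a metallothionein of the brain, had a mean of 1055 ± 36.7 FPKM and the lipoprotein gene Clu a mean of 1004 ± 43.0. The last places among the 20 were held by Actb at 997 ± 36.9, the peptide-processing gene Cpe at 993 ± 8.68, the acyl-CoA binding gene Dbi at 949 ± 55.4, the actin-sequestering gene Tmsb4x at 924 ± 28.9 and the lysosomal protease gene Ctsd at 895 ± 24.9. The 20 were the same when any 1 library was left out. Ranked by fragments instead of per length, 12 of them stayed among the 20. Igfbp5 then led with 1.29% of all fragments, followed by Pea15a with 0.856%, Vim with 0.592% and C3 with 0.588%. Fth1, whose FPKM is scaled by a length of 942 bases, was then at rank 7 with 0.393%.

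**Figure D1:**
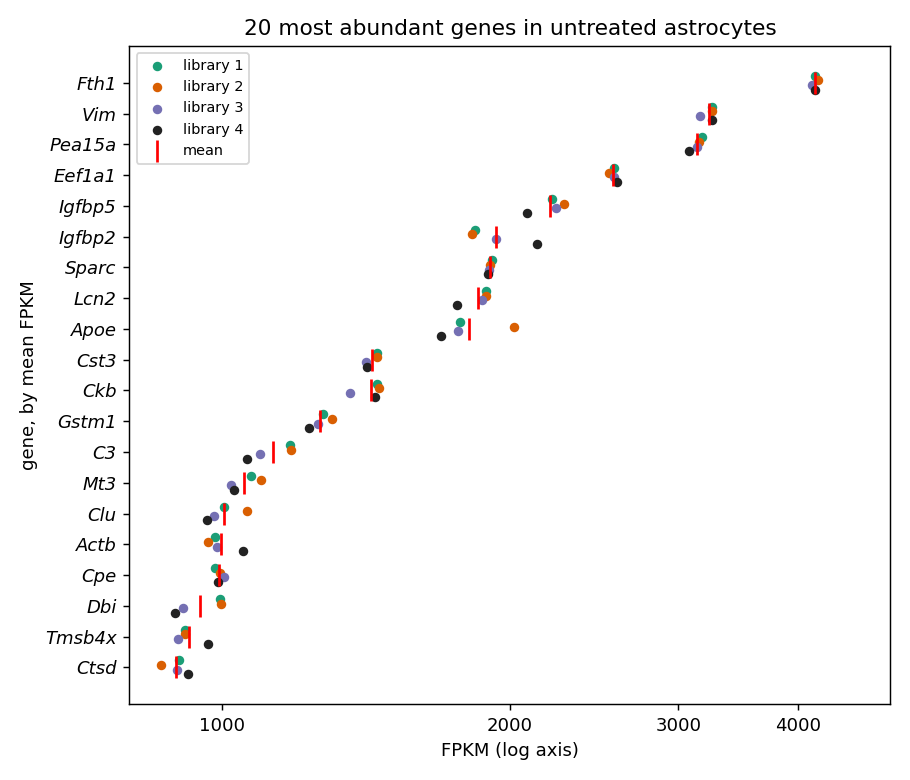
FPKM (log axis) of the 20 genes with the highest mean in untreated astrocytes, with 1 point per library and a red bar at the mean of the 4 libraries. The points of most genes lie close together, from Fth1 at a mean of 4167 FPKM to Ctsd at 895, while Igfbp2 and Apoe spread by 1.17- and 1.19-fold.

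Promoter sequences were read for the abundant genes, since a TATA box is the classic core promoter element of strongly expressed genes. RefSeq's table for GRCm38.p6 gave a single transcription start for 65 of the 100 most abundant genes and for 14510 of all genes. The letters TATAAA began 40 to 20 bases before the start in 6.15% of the 65 (Vim, Ckb, Ppia and Cyr61), in 3.16% of all 14510 and in 1.17% of the 7531 single-start genes that were on. GGGCGG on either strand within 250 bases before the start was found in 50.8% of the 65, 42.2% of all and 63.1% of those that were on. CCAAT on either strand was found in 36.9%, 36.8% and 38.0%. A match is a description of the letters and not of a working site. Genes of the top 20 with more than 1 listed start, or none, were not read. The 60 bases before the starts of the 2 TATA genes among the single-start genes of the top 20 are printed with TATAAA in capitals. Those of Sparc, Lcn2 and Igfbp5 are given for comparison, all 5′ to 3′ on the gene's strand.
Vim (chr2:13574251-13574310, plus strand): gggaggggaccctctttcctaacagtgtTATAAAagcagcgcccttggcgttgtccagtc
Ckb (chr12:111672339-111672398, minus strand): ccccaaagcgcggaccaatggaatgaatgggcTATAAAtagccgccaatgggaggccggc
Sparc (chr11:55420081-55420140, minus strand): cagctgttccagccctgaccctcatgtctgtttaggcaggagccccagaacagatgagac
Lcn2 (chr2:32387740-32387799, minus strand): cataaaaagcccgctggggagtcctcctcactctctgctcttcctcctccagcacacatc
Igfbp5 (chr1:72874866-72874925, minus strand): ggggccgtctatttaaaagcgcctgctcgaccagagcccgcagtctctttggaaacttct
TATAAA is present before Vim and Ckb and absent from the other 3 windows, although all 5 genes exceeded 1000 FPKM.

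Astrocyte markers were at high levels. Of 25 astrocyte identity genes, 24 were on (96% against 53.7% of all genes), 22 reached 10 FPKM and 11 reached 100 FPKM. Their median was 76.7 FPKM, against 1.78 over all genes. Gfap, the filament gene that defines astrocytes, had 417, 444, 416 and 372 FPKM and a mean of 412 ± 29.6. Slc1a3, the glutamate transporter GLAST of radial glia and astrocytes, had 261, 272, 259 and 226 FPKM. Gja1, which encodes the gap junction protein connexin 43, had 65.6, 66.8, 64.7 and 60.5 FPKM. All 3 were highest in library 2 and lowest in library 4. The glutamine synthetase gene Glul had a mean of 357 ± 9.22 FPKM, the water channel gene Aqp4 165 ± 4.43 and the potassium channel gene Kcnj10 155 ± 8.19. Aldh1l1, a folate enzyme used as a pan-astrocyte marker, had 91.0 ± 3.14 FPKM, Aldoc 76.7 ± 2.95 and Sox9, the transcription factor that starts gliogenesis, 57.4 ± 1.53.

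Other astrocyte genes were lower. Slc1a2, the glutamate transporter GLT-1 that dominates in the adult brain, had a mean of 9.73 ± 0.579 FPKM, well under that of Slc1a3. S100b, a calcium-binding protein of mature glia, had 1.18 ± 0.169 FPKM. Gjb6, the gene of connexin 30, had 0.0692 ± 0.0164 FPKM, and the amino acid transporter gene Slc7a10 had 0.0541 ± 0.0103, which is below the level that 3 fragments give a gene of 2 kb. The GABA transporter gene Slc6a11 had 0.324 ± 0.0719 FPKM and the metabotropic glutamate receptor genes Grm3 and Grm5 had 0.0869 ± 0.0713 and 0.0397 ± 0.0128.

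Radial glial genes were on. Of 13 such genes, 12 were on and reached 10 FPKM (92.3%, against 53.7% and 27.8% of all genes), with a median of 138 FPKM. Besides Vim, the brain fatty acid binding protein gene Fabp7 had a mean of 342 ± 14.6 FPKM, the matrix gene Tnc 198 ± 9.42, the filament gene Nes 138 ± 2.35 and the stem cell factor gene Sox2 121 ± 4.16. Hes5, a target of Notch in neural progenitors, was the exception at 0.417 ± 0.0748 FPKM.

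Other cell types were read from their own markers, since the cells were sequenced in bulk. In such data fewer cells of a type and less RNA per cell cannot be told apart. Of 18 microglial genes, 9 were on (50% against 53.7% of all genes) and 1 reached 10 FPKM. The lysosomal gene Cd68 followed at 3.83 ± 0.389 and the adaptor gene Tyrobp at 2.81 ± 0.399. Several genes used to recognise microglia were below 1 FPKM, with P2ry12 at 0.0925 ± 0.0325, Cx3cr1 at 0.412 ± 0.123, Aif1 at 0.299 ± 0.217, Tmem119 at 0.606 ± 0.239 and Csf1r at 0.903 ± 0.237 FPKM. The 18 genes summed to between 52.4 and 54.0 FPKM per library, most of it from the gene above 10 FPKM.

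Of 17 neuronal genes, 6 were on (35.3% against 53.7% of all genes) and 3 reached 10 FPKM (17.6% against 27.8%). Stmn2, a tubulin-binding protein of growing axons, was the highest at 127, 117, 123 and 133 FPKM in the 4 libraries. The tubulin gene Tubb3 had 11.2 ± 1.43 FPKM, the microtubule gene Map2 10.9 ± 0.361, the neuronal enolase gene Eno2 8.79 ± 0.435 and the GABA-synthesis gene Gad1 1.11 ± 0.124. Rbfox3, which encodes the nuclear marker NeuN, had 0.0355 ± 0.0166 FPKM, the synaptic gene Snap25 0.0526 ± 0.0476 and Dcx, of migrating neurons, 0.221 ± 0.0441. Slc17a6, a vesicular glutamate transporter gene, had no fragment in any library. Stmn2 was the only one of the 17 at 100 FPKM or more.

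Of 13 oligodendrocyte lineage genes, 5 were on (38.5% against 53.7% of all genes). Olig1, a transcription factor of the lineage, had a mean of 139 ± 4.14 FPKM, Cnp 47.8 ± 2.86 and Olig2 24.9 ± 1.02. The progenitor genes Cspg4 and Pdgfra had 3.29 ± 0.242 and 0.934 ± 0.111 FPKM and Sox10 had 0.432 ± 0.286. The myelin gene Mbp had 0.345 ± 0.0425 FPKM and Mog was at 0 in all 4 libraries.

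Of 10 endothelial genes, 2 were on (20% against 53.7% of all genes). Slco1a4, an organic anion transporter gene of brain vessels, had 101, 97.6, 101 and 93.8 FPKM, and the vascular receptor gene Kdr had 3.99 ± 0.120. Cldn5, the tight junction gene of brain endothelium, had no fragment in any library, and Pecam1 and Cdh5 had 0.130 ± 0.0234 and 0.568 ± 0.263 FPKM. Among 9 mural genes, the smooth muscle actin gene Acta2 had 586, 534, 596 and 605 FPKM and Tagln had a mean of 555 ± 32.0. The pericyte receptor gene Pdgfrb had 20.4 ± 0.434 FPKM and Rgs5 1.56 ± 0.177. Kcnj8, Myh11 and Des had 0.0147 ± 0.0190, 0.532 ± 0.112 and 0.254 ± 0.0813 FPKM. Of the 9 genes 5 were on (55.6% against 53.7% of all genes), and Acta2 and Tagln were the only ones at 100 FPKM or more.

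Of 14 genes of fibroblasts and leptomeninges, 8 were on (57.1% against 53.7% of all genes) and 3 reached 10 FPKM. Islr, an immunoglobulin-domain protein, had a mean of 311 ± 7.30 FPKM, and the collagen genes Col1a2 and Col1a1 had 53.7 ± 3.37 and 48.8 ± 6.14. Foxc1, a factor of the meninges, had 4.79 ± 0.487 FPKM, Dcn 1.45 ± 0.146 and Lum 0.237 ± 0.0631. Among 11 genes of ependyma and choroid plexus, Foxj1, the master gene of motile cilia, had 121, 121, 111 and 112 FPKM. The cilia genes Rsph1 and Cfap126 had 15.5 ± 1.35 and 6.62 ± 0.807 FPKM, while Tmem212 had 0.0342 ± 0.0395 and the choroid plexus gene Ttr 0.165 ± 0.145. Foxj1 was thus higher than the ciliary genes in the list. Of 7 genes of tanycytes, glia of the hypothalamic wall, 4 were on (57.1% against 53.7% of all genes). Lhx2 had 40.4 ± 1.51 FPKM, Crym 9.07 ± 0.936, Dio2 1.47 ± 0.176 and Nkx2-1 1.37 ± 0.106. Rax, which defines tanycytes, had 0.0295 ± 0.0411 FPKM. What share of any of these signals comes from other cells was not tested.

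**Figure D2:**
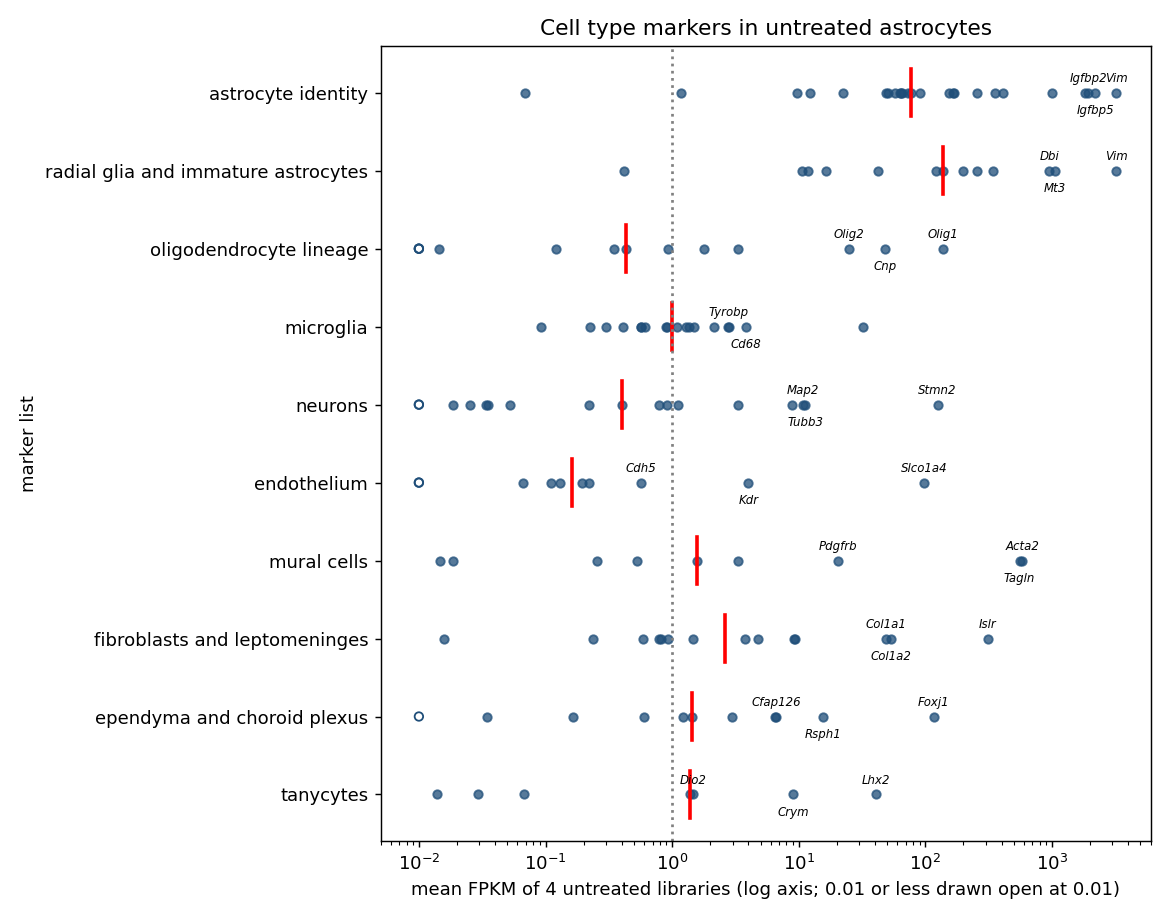
Mean FPKM over the 4 untreated libraries (log axis) of each member of 10 cell type marker lists, with 2 or 3 of the highest members named, a red bar at the median of the list and a dotted line at 1 FPKM. The medians of the astrocyte and radial glia lists lie at 76.7 and 138 FPKM, and those of the other 8 lists between 0.162 and 2.59.

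Of 21 transcription factor genes that mark regions of the brain, 10 were on (47.6% against 53.7% of all genes) and 6 reached 10 FPKM. Lhx2, of the forebrain, had a mean of 40.4 ± 1.51 FPKM and Six3, of the anterior forebrain, 16.3 ± 1.55. Pax6 had 16.4 ± 0.508, Zic2 12.3 ± 0.483 and Emx2 10.3 ± 0.452 FPKM, while Emx1, of the dorsal cortex, had 0.367 ± 0.111. The midbrain and hindbrain border genes En1 and En2 had 0.0743 ± 0.0607 and 0.149 ± 0.0656 FPKM. Of the 39 Hox genes, which pattern the hindbrain and spinal cord, none was on, 24 had no fragment in any library and the highest mean was 0.103 FPKM.

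By GO terms of the deposited annotation, 694 of 1089 transcription factor genes were on, 63.7% against 53.7% of all genes. They held 4.40% ± 0.0236 of the fragments. The highest was Eno1 at 508 ± 12.3 FPKM, a glycolytic enzyme that carries the term, and Ctnnb1 at 329 ± 4.30 and Pcbp1 at 122 ± 1.67 are likewise known first for other roles. The inhibitors of differentiation, proteins that hold helix-loop-helix factors away from DNA, led the rest: Id3 at 478 ± 17.3, Id1 at 204 ± 8.97 and Id2 at 192 ± 2.41 FPKM. The oxidative stress factor gene Nfe2l2 had 185 ± 3.60 FPKM, Olig1 139 ± 4.14, Sox2 121 ± 4.16 and the acute-phase factor gene Cebpd 119 ± 7.02. The deposited family column held 1368 genes, of which 795 were on, and it added Ybx1 at 165 ± 3.13, Foxj1, Nfe2l1 at 106 ± 0.827 and Arnt2 at 101 ± 0.388 FPKM to the 10 highest.

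Families differed in the share that was on, which was 53.7% over all genes. It was 38 of 44 ZBTB genes (86.4%), 34 of 45 bZIP genes (75.6%) and 35 of 47 HMG genes (74.5%). For C2H2 zinc finger genes it was 371 of 500 (74.2%). It was 42 of 223 homeobox genes (18.8%), 15 of 42 forkhead genes (35.7%) and 2 of 17 T-box genes (11.8%). Other families lay near the share of all genes, such as ETS with 14 of 26 (53.8%). C2H2 genes were mostly low, with 59 of 500 at 10 FPKM or more (11.8% against 27.8% of all genes). Homeobox and T-box factors set region and lineage in the embryo. Among glial factors the NFI genes Nfix, Nfib and Nfia had 60.9 ± 0.843, 25.4 ± 0.810 and 8.41 ± 0.401 FPKM, the Notch target Hey1 37.9 ± 1.23 and the FGF target Etv5 49.8 ± 2.79.

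AP-1 and immediate early genes, which stress and handling of cells induce, were moderate. Of 16, 14 were on (87.5% against 53.7% of all genes) and 6 reached 10 FPKM (37.5% against 27.8%). Atf4 had a mean of 54.5 ± 1.18 FPKM, Jund 43.1 ± 0.946, Junb 39.7 ± 0.812 and Jun 36.5 ± 0.927. Fos had 7.98 ± 0.566, Egr1 5.04 ± 0.596 and Fosb 0.416 ± 0.131 FPKM. Among inflammatory factors, Stat3, which drives the reactive programme, had 96.8 ± 1.29 FPKM, Cebpb 30.8 ± 3.71 and the NF-kB subunit genes Rela and Nfkb1 28.9 ± 0.570 and 25.5 ± 0.687. Rel had 0.595 ± 0.0888, and the myeloid factors Spi1 and Irf8 had 0.567 ± 0.210 and 0.262 ± 0.117 FPKM.

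Secreted proteins by GO terms numbered 1469 genes, of which 447 were on, 30.4% against 53.7% of all genes. They held 8.66% ± 0.0704 of the fragments. The class takes genes of the extracellular space that carry no membrane, nuclear or mitochondrial term, so it leaves out Apoe, Sparc and Clu and takes in Gstm1 and the cyclophilin gene Ppia (772 ± 30.4 FPKM), whose proteins act mainly inside cells. Fmod, a small proteoglycan that binds collagen, had 868 ± 41.0 FPKM and the thrombospondin gene Thbs1 487 ± 33.3. The secreted class was thus mostly off, with a few members at very high levels.

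Of 10 genes of the insulin-like growth factor system 9 were on (90% against 53.7% of all genes). The 4 at 100 FPKM or more all encode binding proteins. Igfbp3 and Igfbp7 had 203 ± 5.73 and 168 ± 10.3 FPKM beside Igfbp5 and Igfbp2. Igf1 and Igf2 had 2.79 ± 0.179 and 1.72 ± 0.153 FPKM, and Igfbp1 had no fragment in any library. Among carriers, the saposin precursor gene Psap had 786 ± 17.4 FPKM and the copper-carrying ferroxidase gene Cp 379 ± 12.9.

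Matrix and matricellular genes were widely on, 95.8% and 92.9% of their lists against 53.7% of all genes. Of 24 matrix genes 23 were on and 6 reached 100 FPKM, led by the fibronectin gene Fn1 at 253, 245, 290.2 and 316, the biglycan gene Bgn at a mean of 208 ± 13.9, Col5a2 at 154 ± 12.8 and the laminin gene Lamb2 at 138 ± 3.00 FPKM. Fn1 was higher in libraries 3 and 4 than in 1 and 2. The brain proteoglycan genes Ncan, Bcan and Vcan had 60.9 ± 2.55, 16.5 ± 0.912 and 2.12 ± 0.140 FPKM. Of 14 matricellular and synapse-forming genes 13 were on, with Ctgf at 397 ± 8.36, Cyr61 at 382 ± 18.1 and the glypican gene Gpc4 at 175 ± 2.75 FPKM. The synaptogenic Sparcl1, also called hevin, had 78.9 ± 6.37 FPKM and Chrdl1, which matures synapses, 13.7 ± 0.649. Postn, a matricellular protein of wounds, had 3.68, 5.87, 6.56 and 11.4 FPKM, with library 4 the highest and library 1 the lowest.

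Of 21 genes of proteases and their inhibitors 20 were on (95.2% against 53.7% of all genes) and 9 reached 100 FPKM (42.9% against 2.35%). The metalloprotease inhibitor genes Timp3 and Timp2 had 433 ± 8.53 and 423 ± 5.85 FPKM, Serpinf1 436 ± 25.2 and Timp1, the inducible member, 26.7 ± 2.83. The membrane-bound protease gene Mmp14 had 86.2 ± 1.90 FPKM, Mmp2 21.2 ± 2.15, Mmp3 1.83 ± 0.374 and Mmp9 0.183 ± 0.0610. Among peptides, Npvf, a neuropeptide precursor of the hypothalamus, had 190.2, 180.2, 219 and 173 FPKM, while Npy had 6.79 ± 0.312, Penk 1.36 ± 0.205 and Cartpt 0.0142 ± 0.0285. The granin Scg5 had 56.9 ± 3.08 and Scg2 13.8 ± 0.788 FPKM. No growth factor of 17 reached 100 FPKM. Tgfb3 led at 66.6 ± 1.16, with Cntf, a survival factor of neurons, at 59.0 ± 4.16 and Hbegf at 55.4 ± 3.302 FPKM. The neurotrophin gene Bdnf was lower at 1.07 ± 0.0437 and Gdnf at 0.207 ± 0.0299 FPKM.

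Membrane proteins numbered 2170 genes by GO terms, of which 867 were on, 39.95% against 53.7% of all genes, with 10.5% ± 0.0669 of the fragments. The lysosomal membrane gene Lamp1 led at 572 ± 10.9 FPKM, followed by the antiviral gene Ifitm3 at 502 ± 38.7, the tetraspanin gene Cd81 at 453 ± 6.01 and Itm2b at 442 ± 5.35. Mlc1, an end-foot protein of astrocytes that is altered in a leukodystrophy, had 388 ± 16.7 FPKM. Ephx1, an epoxide hydrolase, had 344 ± 4.77, the metalloreductase gene Steap4 332 ± 21.1 and Laptm4a 332 ± 3.37 FPKM. Of 19 adhesion and surface genes all reached 10 FPKM, with Itgb1 at 319 ± 21.0, Bsg at 276 ± 4.45 and Gpm6b at 266 ± 4.59.

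Among transporters, Atp1b2, the adhesion-type subunit of the sodium pump, had 169 ± 4.54 FPKM, the lactate transporter gene Slc16a1 79.8 ± 2.66, the zinc transporter gene Slc39a12 64.9 ± 3.14 and the bicarbonate transporter gene Slc4a4 50.7 ± 1.54. The glucose transporter gene Slc2a1 had 38.9 ± 1.26 FPKM. Of 24 growth and transmitter receptors, Fgfr1 had 117 ± 2.79, the sphingosine phosphate receptor gene S1pr3 113 ± 6.13 and the tissue factor gene F3 109 ± 5.96 FPKM. Notch2 had 43.3 ± 1.59, the adenosine receptor gene Adora1 32.2 ± 1.58, Ednrb 25.4 ± 3.66 and Egfr 9.24 ± 0.128. The purine receptor gene P2ry1 had 8.97 ± 0.647 FPKM.

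Receptors for cytokines were present while most cytokines were not. Of 19 receptor genes 18 were on (94.7% against 53.7% of all genes) and 8 reached 10 FPKM (42.1% against 27.8%). Il6st, the shared receptor chain of the IL-6 family, had 150.4 ± 5.14 FPKM, Osmr 41.3 ± 2.22 and Ifngr1 30.5 ± 1.23. Of the receptors for the stimuli used in the other libraries, the TNF receptor gene Tnfrsf1a had 86.5 ± 2.13 FPKM and Tnfrsf1b 2.68 ± 0.209, the IL-1 receptor gene Il1r1 3.58 ± 0.297 and its partner Il1rap 5.71 ± 0.225. Cd40 was off at 0.368 ± 0.0702 FPKM. Phagocytosis receptors were all on, with Lrp1 at 118 ± 3.12, the cholesterol exporter gene Abca1 at 102 ± 2.18, Axl at 61.1 ± 1.21, Megf10 at 13.7 ± 0.554 and Mertk at 1.51 ± 0.0588 FPKM.

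Immune genes were on before any stimulus. By GO terms, 403 of 893 were on, 45.1% against 53.7% of all genes, and they held 4.14% ± 0.0175 of the fragments. Lcn2 and C3 were the highest, each with a mean above 1000 FPKM. B2m, the light chain of MHC class I, had 562, 624, 588 and 646 FPKM. The chitinase-like gene Chil1, secreted by reactive astrocytes, had a mean of 340.0 ± 15.4, the thymosin-like gene Ptms 303 ± 8.07 and the autophagy receptor gene Sqstm1 262 ± 5.76 FPKM. The class was thus on in a smaller share than all genes, and it included 2 of the 13 most abundant genes.

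Of 10 acute-phase genes 6 were on, 60% against 53.7% of all genes, and all 6 reached 10 FPKM. Beside Lcn2, Cp and Steap4 these were Serpina3n, a serine protease inhibitor of reactive astrocytes, at 156 ± 2.19 FPKM, the pentraxin gene Ptx3 at 96.6, 97.1, 102 and 105 and the serum amyloid gene Saa3 at 12.4, 11.1, 14.4 and 17.1. Saa3 was highest in library 4. Saa1, Saa2 and Orm1 had no fragment in any library and Hp had 0.225 ± 0.0274 FPKM. In complement, the C1 protease genes C1ra and C1s1 had 58.3 ± 3.77 and 57.5 ± 2.38 FPKM, their inhibitor Serping1 60.1 ± 3.302 and C4b 35.0 ± 2.76. The C1q chain C1qa, made by microglia, had 1.09 ± 0.214 FPKM, Cfb 0.917 ± 0.0850 and C2 0.286 ± 0.0693. C3 was the only one of the 16 complement genes at 100 FPKM or more. Fragments of C1ra, C1s1 and C4b could be shared with near-identical copies.

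Of 15 chemokine genes 13 were on (86.7% against 53.7% of all genes) and 5 reached 10 FPKM (33.3% against 27.8%). Cxcl10, which draws T cells, had 117, 122, 117 and 113 FPKM, and Ccl2, which draws monocytes, had 69.6, 65.7, 68.1 and 64.9. Both were within 1.07-fold over the libraries. Cx3cl1, a ligand of microglia, had 55.8 ± 0.695 FPKM, Cxcl1 28.4 ± 1.88 and Ccl5 8.30 ± 1.00. Ccl3 had 2.09 ± 0.917 and Cxcl9 0.237 ± 0.0960 FPKM. Of 16 cytokine genes 5 were on (31.25% against 53.7% of all genes). Csf1, which keeps microglia alive, had 264, 266, 272 and 286 FPKM. Il18, Il34 and Lif had 6.15 ± 0.512, 4.65 ± 0.735 and 2.57 ± 0.230 FPKM and Il33 1.06 ± 0.0613. Il6 and Tnf were below 1 FPKM at 0.422 ± 0.0961 and 0.337 ± 0.158, and Il1a, Il1b and Ifnb1 were at 0.0146 ± 0.0110, 0.0291 ± 0.0253 and 0.0157 ± 0.0315. Csf1 was the only cytokine gene among them at 10 FPKM or more.

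All 12 MHC class I genes were on, against 53.7% of all genes. H2-D1 was at 192 ± 7.02, H2-K1 at 189.5 ± 7.01 and the peptide-loading gene Tapbp at 112 ± 4.75 FPKM. Of 6 class II genes 3 were on, 50% against 53.7% of all genes, and none reached 10 FPKM. The chaperone gene Cd74 was at 5.44 ± 0.644, H2-Ab1 at 2.08 ± 0.280 and H2-DMa at 1.29 ± 0.104. H2-Aa was just under 1 FPKM, at 0.9998 ± 0.386, and the transactivator gene Ciita was at 0.0759 ± 0.0306. Fragments of H2 genes can be shared between near-identical copies, so these levels are uncertain. Of 21 innate sensors 12 were on, 57.1% against 53.7% of all genes. The RNA sensor gene Ddx58 had 27.4 ± 3.19 FPKM, Tlr2 23.2 ± 0.920, Myd88 14.1 ± 0.821, Cd14 11.4 ± 1.54, Tlr3 10.1 ± 0.733 and Tlr4 2.14 ± 0.0905. Nlrp3 and Aim2, which build inflammasomes, had 0.0456 ± 0.0171 and 0.0444 ± 0.0102 FPKM.

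Most markers that other studies use for reactive astrocytes were on at baseline. All 13 pan-reactive markers were on, against 53.7% of all genes, and 8 reached 100 FPKM (61.5% against 2.35%). Only 2 of the 13 were in no other list here, so most of their levels are also counted elsewhere. Of 11 A1 markers, named for neuroinflammation, 10 were on (90.9%), with a median of 25.6 FPKM. Of 13 A2 markers, named for ischaemia, 11 were on (84.6%), with a median of 24.95 FPKM. The median over all genes was 1.78 FPKM. Ggta1 of the A1 list had 52.8 ± 1.46 FPKM and Srgn 0.921 ± 0.0840. Of the A2 list, S100a10 had 86.1 ± 0.928 FPKM, Clcf1 38.9 ± 0.604 and Ptgs2 3.22 ± 0.361, while Slc10a6 had no fragment in any library. The medians of the A1 and A2 lists were thus close to each other.

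**Figure D3:**
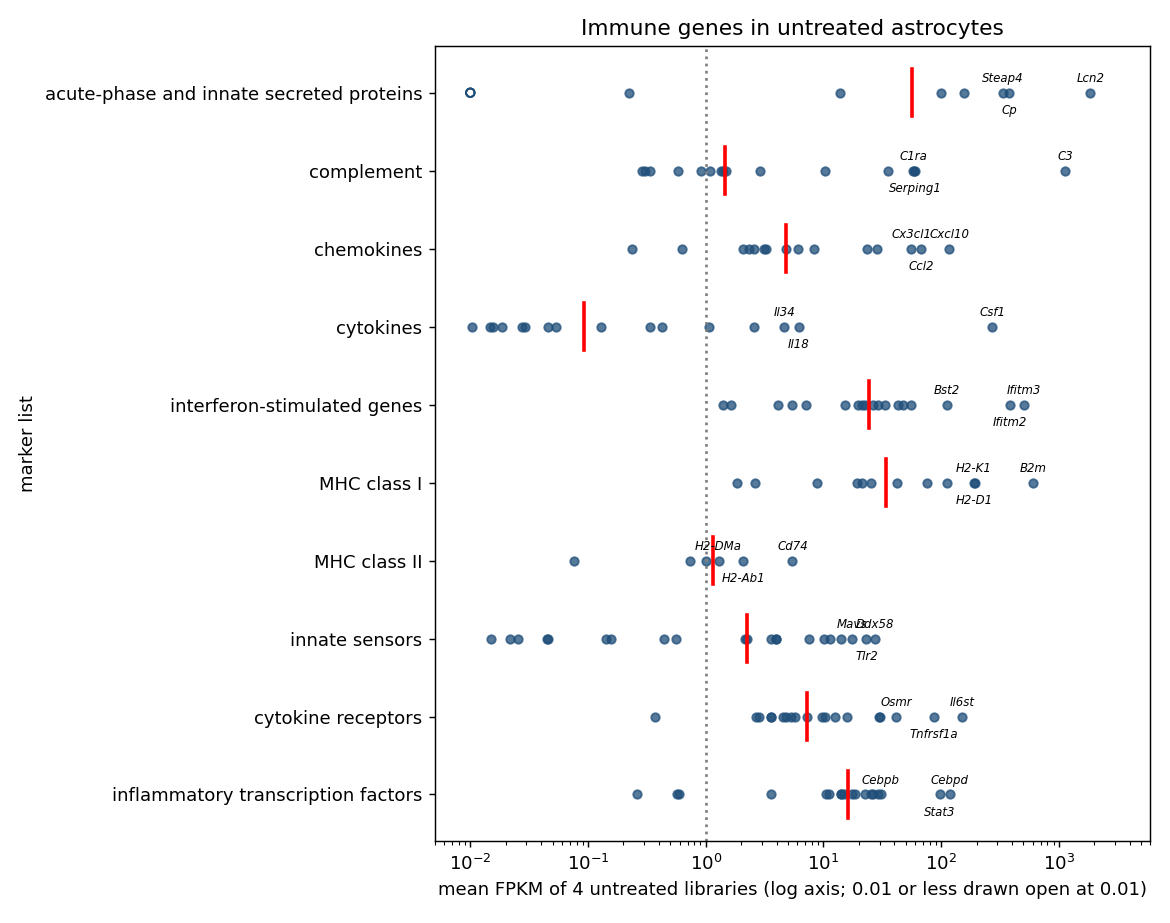
Mean FPKM over the 4 untreated libraries (log axis) of each member of 10 immune lists, with the 3 highest members named, a red bar at the median of the list and a dotted line at 1 FPKM. Lcn2 and C3 lie above 1000 FPKM, while most cytokine genes lie left of the dotted line.

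Genes of dividing cells were on. All 23 proliferation genes were on, against 53.7% of all genes, and 14 reached 10 FPKM (60.9% against 27.8%). Pcna, the sliding clamp of DNA replication, had 79.4 ± 2.42 FPKM, the ribonucleotide reductase gene Rrm2 48.9 ± 4.31, the topoisomerase gene Top2a 43.8, 38.1, 45.3 and 43.7 and Mki67, the marker of dividing cells, 18.6, 16.7, 19.7 and 19.1. Library 2 was the lowest for both of the last genes, and for 20 of the 23 in all, as it was for 3154 of the 11739 genes that were on. The 23 genes summed to 364 FPKM in library 2 and to between 405 and 414 in the others. Ccnd1, the G1 cyclin, had 321 ± 31.8 FPKM, Ccnd2 206 ± 14.2 and the cell cycle inhibitor gene Cdkn1a 153 ± 9.34.

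CCAAT boxes are common in promoters of cell cycle genes. Of the 21 proliferation genes with a single start, 18 (85.7%) held CCAAT on either strand within 250 bases before it, against 36.8% of all 14510. The 160 bases before the starts of Top2a and Rrm2 are printed 5′ to 3′ on the gene's strand, with CCAAT and its reverse complement in capitals, as examples with several matches and with a single one.
Top2a (chr11:99024190-99024349, minus strand): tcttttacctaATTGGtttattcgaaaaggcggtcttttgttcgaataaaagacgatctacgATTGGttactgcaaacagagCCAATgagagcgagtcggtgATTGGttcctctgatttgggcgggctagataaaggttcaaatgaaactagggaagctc
Rrm2 (chr12:24708094-24708253, plus strand): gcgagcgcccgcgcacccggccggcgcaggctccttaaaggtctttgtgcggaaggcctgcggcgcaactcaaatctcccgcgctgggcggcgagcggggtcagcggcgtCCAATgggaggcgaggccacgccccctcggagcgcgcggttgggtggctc
Top2a held 4 matches in this window and Rrm2 held 1. The Top2a gene as listed ends at 99024199, just inside its window.

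Genes of translation, metabolism and the cytoskeleton were also abundant. Of all genes, 53.7% were on and 2.35% reached 100 FPKM. Of 82 cytosolic ribosomal protein genes 64 reached 100 FPKM, as did 11 of 12 genes of a translation list that shares members with them. Of 16 iron and redox genes 15 were on and 12 reached 100 FPKM, with the ferritin light chain gene Ftl1 at 731 ± 5.03 FPKM and the peroxiredoxin gene Prdx6 at 586 ± 15.03. Of 18 glycolysis genes 17 were on, with Ldhb at 866 ± 7.57, Eno1 at 508 ± 12.3, Pkm at 396 ± 8.38, Ldha at 164 ± 5.99 and Hk2 at 6.21 ± 0.314 FPKM. Gapdh was listed at 30.9 ± 0.903 FPKM and has many near-identical pseudogene copies, so that its level is uncertain. All 15 lipid synthesis genes were on, led by the desaturase genes Fads2 at 444 ± 14.4 and Scd2 at 396 ± 12.1 FPKM. Hmgcs1, an early enzyme of cholesterol synthesis, had 76.2 ± 2.33 FPKM. The cytoskeletal gene Tuba1a had 819 ± 13.6 FPKM, and 20 of 21 cytoskeletal genes reached 100 FPKM.

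The spread between libraries was small. The median coefficient of variation of genes that were on was 4.55%, against a median counting error of 3.64% from the fragments behind them. It was 6.51% for genes of 1 to 10 FPKM (counting error 5.45%), 3.50% for 10 to 100 FPKM (2.64%) and 2.499% above (1.21%). Of the 11739 genes, 223 exceeded 20%. The smallest spread among genes of at least 10 FPKM was that of Fundc1, a mitophagy receptor, at 0.154%, followed by Gnl2 at 0.178%, St3gal5 at 0.196% and Ston2 at 0.296%. Chd4, a chromatin remodeller, had 0.354%, Plod1 0.366%, Ncl 0.379%, Arnt2 0.383%, Gsk3b 0.404% and Btbd1 0.412%. These lie under the counting error of their fragments, 3.39% for Fundc1 and 0.870% for Arnt2, as the lowest of 6080 genes measured in 4 libraries each.

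The largest spread was that of Rnaset2a and Rnaset2b, near-identical copies of a lysosomal ribonuclease gene, at 11.4, 43.1, 13.6 and 14.7 and 10.5, 25.4, 12.2 and 16.7 FPKM. Library 2 was the highest for both, and how fragments were divided between the copies is uncertain. Ripply1, a transcriptional repressor that acts in segmentation, had 40.3, 40.1, 31.2 and 23.4 FPKM, lowest in library 4. The predicted gene Gm5617 had 12.3, 13.2, 8.50 and 8.42. The other 6 of the 10 largest were genes that interferons induce.

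**Figure D4:**
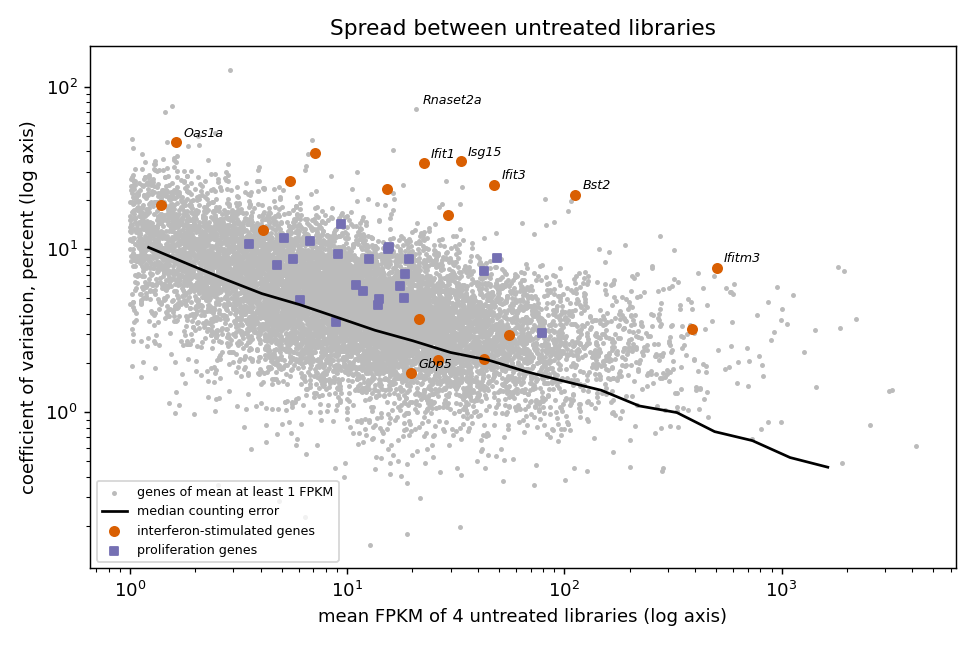
Coefficient of variation over the 4 untreated libraries against mean FPKM for genes of at least 1 FPKM (both axes log), with interferon-stimulated genes in orange, proliferation genes as squares and the median counting error as a line. Isg15, Ifit1, Ifit3 and Bst2 lie well above the cloud while Gbp5 lies within it.

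Interferons bind receptors on the cell surface and, through transcription factors that bind interferon-stimulated response elements, turn on antiviral genes. The ubiquitin-like gene Isg15 had 28.3, 25.2, 29.7 and 50.6 FPKM in libraries 1 to 4, 2.01-fold from the lowest to the highest. Ifit1 and Ifit3, which bind viral RNA and its partners, had 17.5, 15.6, 24.6 and 32.5 and 41.6, 35.6, 50.8 and 62.9 FPKM. Library 4 was the highest and library 2 the lowest for all 3. Irf7, the factor that amplifies the response, had 9.09, 8.57, 11.2 and 15.9 FPKM, Oasl2 23.6, 22.97, 29.0 and 39.2 and Rtp4 15.5, 13.6, 19.7 and 23.8. Usp18, which damps the response, had 13.4, 11.7, 16.2 and 19.9 FPKM and Bst2, which tethers virus particles, 98.6, 95.8, 107 and 148. The order of the libraries was the same in each of these genes, 2 below 1 below 3 below 4.

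Of 18 interferon-stimulated genes all were on (against 53.7% of all genes), 14 were highest in library 4 and 11 were lowest in library 2. Of the 11739 genes that were on, 3083 were highest in library 4 and 3154 lowest in library 2. Of the 18, 8 had a coefficient of variation above 20%, as had 1.90% of genes that were on. Without library 4 these were 5 of the 18 and 1.52% of genes that were on. The coefficient of variation fell to 8.41% from 34.7% for Isg15 and to 5.79% from 21.7% for Bst2 when library 4 was left out, and was 24.7% against 34.0% for Ifit1. The membrane protein gene Ifitm3, the highest of the 18, had 506, 469.8, 478 and 556 FPKM, with 3.94% against 7.70%. Over the 15 members of at least 5 FPKM the median of log2(FPKM / gene mean) was -0.12, -0.23, 0.01 and 0.27 in libraries 1 to 4. The median coefficient of variation of the 15 was 16.2%, and 5.79% without library 4, against 3.83% and 3.47% over the 8566 genes of at least 5 FPKM. Among the 18, 6 members varied by less than 5%, among them Gbp5 at 19.2, 20.02, 19.7 and 19.8 FPKM, Gbp2 at 58.2, 55.5, 55.7 and 54.3, Ifit2 at a mean of 21.4 ± 0.804 and Ifitm2 at 386 ± 12.5. The spread was thus uneven within the list. Copies of the Ifit, Gbp and Ifitm genes resemble each other, so fragments could be shared.

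Other lists varied less. The next largest gap between library medians, on the same log2 scale, was that of 4 genes of ependyma and choroid plexus at 0.02, 0.14, -0.11 and -0.07, followed by the proliferation genes at 0.04, -0.16, 0.07 and 0.05. Then came 5 genes of fibroblasts and leptomeninges at 0.0022, -0.12, -0.0059 and 0.10, the matrix genes at -0.04, -0.10, 0.05 and 0.10 and 3 mural genes at 0.03, -0.12, 0.01 and 0.06. All 5 of the fibroblast genes were lowest in library 2, as were 11 of the 20 matrix genes, and the fibroblast and matrix lists share collagen genes. The summed level of the whole list of 14 fibroblast and leptomeningeal genes was 425 FPKM in library 2 and 467 in library 4, and that of the 9 mural genes 1069 and 1212. The part of such cells in the differences between libraries was not tested. The transporters and channels had 0.05, 0.04, 0.01 and -0.11, with 12 of 14 lowest in library 4, as were 2348 of the 8566 genes of at least 5 FPKM. Astrocyte identity genes had 0.02, 0.05, -0.01 and -0.06. Fn1 had the same order of libraries as the interferon genes. Total depth had that order too, from 19195898 fragments in library 2 through 19399764 in library 1 and 20082800 in library 3 to 20640490 in library 4, and its part in the gradient was not tested. Microglial markers, summed, were 52.4 to 54.0 FPKM over the libraries.

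**Figure D5:**
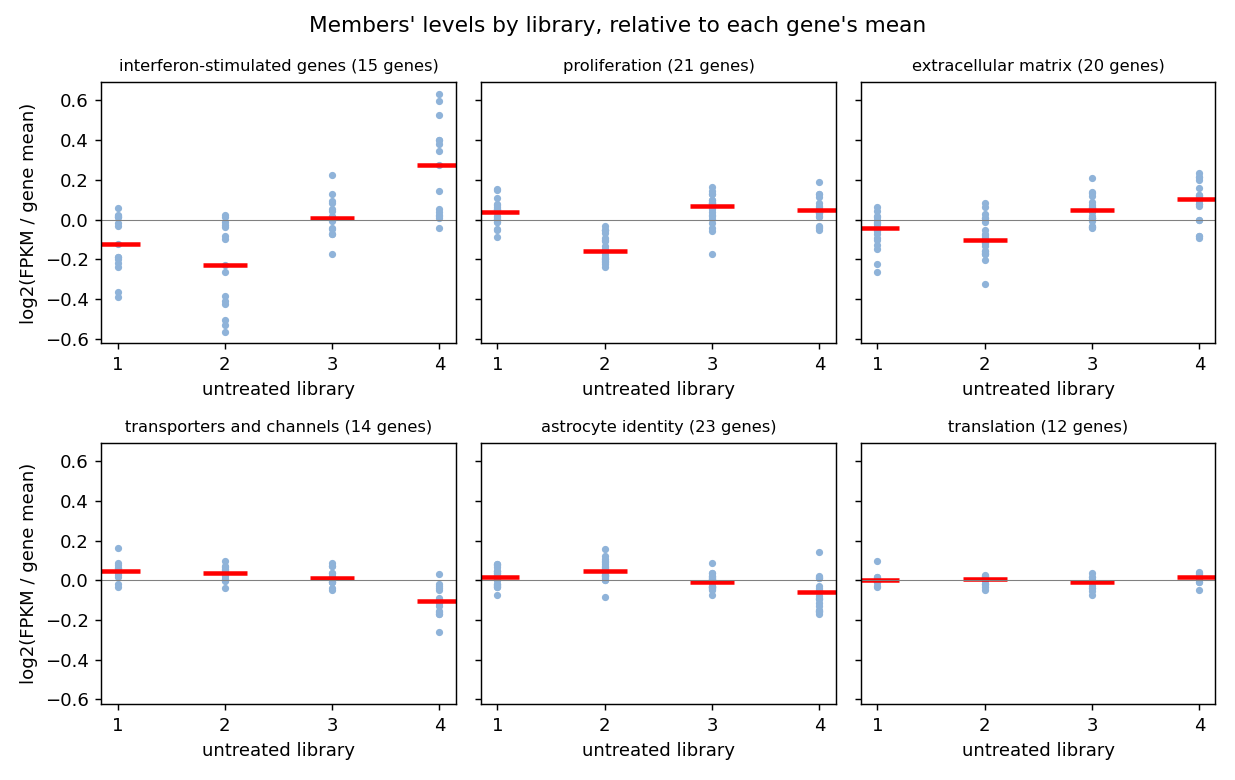
Level of each member of at least 5 FPKM in each untreated library as log2(FPKM / gene mean), for 6 lists, with red bars at the median. Interferon-stimulated genes spread from a median of -0.23 in library 2 to 0.27 in library 4, while translation genes stay near 0.

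Of the 18 interferon-stimulated genes 12 had a single start in RefSeq's table. The letters GAAANNGAAA, the core of the interferon-stimulated response element, lay on either strand within 250 bases before the start in 9 of the 12 and in 3.12% of all 14510 genes. The 9 were Bst2, Gbp2, Gbp5, Ifit1, Ifit3, Ifitm2, Isg15, Oas1a and Rsad2. The list consists of genes known for this response, so the share describes the list and is no finding about the libraries. The 160 bases before the start are printed 5′ to 3′ on the gene's strand, with the motif or its reverse complement in capitals, for 4 genes that varied between libraries, for Gbp2 and Ifitm2, which hold the motif and hardly varied, and for Ifitm3, which has no match in 250 bases.
Isg15 (chr4:156200819-156200978, minus strand): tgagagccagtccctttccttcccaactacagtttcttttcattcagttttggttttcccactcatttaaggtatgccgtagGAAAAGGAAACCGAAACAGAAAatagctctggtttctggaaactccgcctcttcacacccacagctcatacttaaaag
Ifit1 (chr19:34640729-34640888, plus strand): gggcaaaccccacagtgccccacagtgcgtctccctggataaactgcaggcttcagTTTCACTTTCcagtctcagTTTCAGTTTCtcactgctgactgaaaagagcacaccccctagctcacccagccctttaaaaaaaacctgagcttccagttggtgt
Ifit3 (chr19:34583369-34583528, plus strand): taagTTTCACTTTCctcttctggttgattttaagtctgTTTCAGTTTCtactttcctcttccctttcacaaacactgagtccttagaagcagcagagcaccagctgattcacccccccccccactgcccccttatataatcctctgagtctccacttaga
Bst2 (chr8:71537473-71537632, minus strand): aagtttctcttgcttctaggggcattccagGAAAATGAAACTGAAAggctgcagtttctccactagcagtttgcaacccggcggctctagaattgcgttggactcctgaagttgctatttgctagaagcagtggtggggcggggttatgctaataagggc
Gbp2 (chr3:142620503-142620662, plus strand): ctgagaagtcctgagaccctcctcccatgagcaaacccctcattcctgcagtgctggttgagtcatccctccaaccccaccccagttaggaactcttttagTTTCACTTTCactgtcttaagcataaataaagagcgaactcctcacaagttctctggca
Ifitm2 (chr7:140955962-140956121, minus strand): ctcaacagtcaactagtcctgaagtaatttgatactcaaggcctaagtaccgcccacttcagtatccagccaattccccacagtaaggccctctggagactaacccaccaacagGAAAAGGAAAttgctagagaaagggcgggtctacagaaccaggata
Ifitm3 (chr7:141010745-141010904, minus strand): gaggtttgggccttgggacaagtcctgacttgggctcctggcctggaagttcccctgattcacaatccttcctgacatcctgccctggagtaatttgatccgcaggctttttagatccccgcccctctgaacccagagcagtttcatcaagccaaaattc
Isg15 held 3 overlapping matches, Ifit1, Ifit3 and Bst2 held 2 each, and Gbp2 and Ifitm2 held 1 each. The windows of Ifit3 and Ifitm2 lie inside the genes as listed, which reach from 34583119 for Ifit3 and up to 140959686 for Ifitm2. For these genes the start used is thus not the outer end of the gene. Among the 9 genes with the motif, 5 had a coefficient of variation above 20% and 3 had one below 5%, so genes with the motif lay at both ends of the spread. So did the single-start genes without a match, with Ifi44 at 39.2%, Ifitm3 at 7.70% and Ifitm1 at 2.11%.

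The genes of the 6 marker transcripts lie at these positions of GRCm38: Vim on chromosome 2 from 13574311 to 13582826, Gfap on chromosome 11 from 102887336 to 102897200, Slc1a3 on chromosome 15 from 8634124 to 8710807, Gja1 on chromosome 10 from 56377300 to 56390419, Igfbp2 on chromosome 1 from 72824480 to 72852474 and Igfbp5 on chromosome 1 from 72858065 to 72874865. FPKM values are given per gene, so the transcripts of a gene were not separated. The lengths behind the values are shorter than these spans, 1834 bases for Vim and 4206 for Slc1a3.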

How the data were processed

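Polyadenylated RNA was sequenced from untreated astrocytes in 4 libraries, prepared with TRIzol and a stranded mRNA kit, per the labels' protocols. The authors deposited FPKM values for 21878 genes, with GO terms for 20677. The submitters' processing notes name DESeq and mm10 without a role. The sources used here give no aligner or counter. Groups came from the sample titles.

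Within a gene the FPKM of the 8 libraries stand in whole-number ratios (relative tolerance 1e-11), which gave whole fragments for 16557 genes, at least 99.86% of each untreated library's fragments, and the library totals (19399764, 19195898, 20082800 and 20640490). A chi-square of fragments per gene was 2.11 to 4.50 between pairs of untreated libraries, above the value that sampling noise alone gives, so all 4 were counted. Intervals and floors cover counting error only. Recovery and spread were tested on simulated data. Means, SDs and coefficients of variation were computed on FPKM as deposited, with Python 3.11.15 and numpy 2.4.6. Nothing was tested between groups. Alternatives were other thresholds, class terms, TPM, median-ratio rescaling and leaving out each library. Positions, starts and promoter letters came from RefSeq tables of GRCm38.p6, in which 21727 genes were found by gene number.

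The libraries, the 44 gene lists and the rules were chosen with earlier results of these data known. Named genes were the 20 most abundant, the 10 most abundant of each GO class and of the deposited factor families, the 10 largest and 10 smallest coefficients of variation among genes of at least 10 FPKM, the 6 markers, and in each list the 4 highest members, those at 0 and those that define its role. Which members define a role, the factor families, the interferon motif, the CCAAT share of proliferation genes and the Hox count were chosen after the values were seen. Some named genes are not reported here.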

Additional observations from a re-analysis of the deposited data

Results flagged for a closer look

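In groups of 4 libraries, a value was set apart when its gap to the nearest library, as a share of the range, exceeded the critical value of Dixon's test for 4 values. Of 393 values checked, 15 (3.82%) were set apart. Chance alone sets apart about 1 in 20 independent values, but these are not independent, so the shares cannot be compared. Sums stand beside their own members, and some genes were picked by their spread. A gene with fragments in a single library is always set apart. None of the 15 was in library 1, 5 were in library 2, 4 in library 3 and 6 in library 4. Among abundant genes, Vim was at 3164 FPKM in library 3, with the others between 3250 and 3254. Ckb was at 1361 FPKM in library 3, with the others between 1446 and 1460.2. The glial transcription factors summed to 1367 FPKM in library 3, with the others between 1423 and 1426. These are small differences in levels that are otherwise close to each other.

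Lcn2, the siderophore-binding lipocalin, was at 1761 FPKM in library 4, with the others between 1871 and 1889. The acute-phase list, of which Lcn2 is the largest part, summed to 2705 FPKM in library 4, with the others between 2862 and 2891. The adenosine receptor gene Adora1 was at 29.8 FPKM in library 4, with the others between 32.9 and 33.2. Sox10, a factor of the oligodendrocyte lineage, was at 0.857 FPKM in library 4, with the others between 0.239 and 0.323. Its level is low in all 4 libraries.

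Rnaset2a, which has a near-identical copy, was at 43.1 FPKM in library 2, with the others between 11.4 and 14.7. The cyclin gene Ccna2 was at 16.9 FPKM in library 2, with the others between 20.01 and 20.5. The proliferation genes summed to 364 FPKM in library 2, with the others between 405 and 414. H2-Ab1, a class II gene, was at 1.66 FPKM in library 2, with the others between 2.19 and 2.25.

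The last 4 are genes at the detection limit. Slc7a10 was at 0.0695 FPKM in library 4, with the others between 0.0476 and 0.0498. Ifnb1 was at 0.0629 FPKM in library 4, Cartpt at 0.0569 FPKM in library 3 and Kl at 0.00932 FPKM in library 2, each with 0 in the other 3 libraries.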

How the results depend on the processing

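With 1 library left out, between 11737 and 11750 genes were on, and other rules moved the values more. Ranked and summed by FPKM instead of by fragments, the 10 most abundant genes held 7.44% and the 100 most abundant 22.1% of the sum, and by fragments 12 of the 20 most abundant genes stayed. The median coefficient of variation of genes that were on was 3.41% at a mean of at least 10 FPKM, 6.60% with no filter and 4.04% as an SD of ln(FPKM + 1), and leaving out 1 library in turn gave 4.12% to 4.43%. At a mean of at least 5 FPKM 292 secreted and 422 transcription factor genes were on, and by the single broadest GO term 2082 membrane and 226 immune genes. The median coefficient of variation of interferon-stimulated genes was 5.79% to 19.8% without 1 library, the lowest being without library 4, an alternative added after seeing the data. Over members of no other list, 23 list medians moved and 21 stayed the same. Of 25 astrocyte identity genes 5 were in no other list, as were 5 of 13 radial glial and 4 of 11 A1 genes. The cause of these differences was not tested beyond what each rule itself changes. The mean FPKM of all 357 named genes stayed within 1 SD after median-ratio rescaling. Leaving out 1 of 4 libraries cannot move a mean by 1 SD, so those values say nothing of stability. As TPM, 347 of 357 moved by more than 1 SD, since the scale itself is larger. No paired analysis was possible because the result comes from no test. A count of 0 allows a true level of up to about 3 fragments. For a gene of 2 kb, levels below about 0.0781 FPKM rest on very few fragments.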
